A study of Mus musculus with 12 samples.

Results

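The lungs described here came from female C57BL/6N mice that had been exposed to cigarette smoke and were 6 or 4 months old. They were chosen by their labels alone, as the 3 smoke arrays at 6 months and the 3 smoke arrays at 4 months, which are 6 of the 12 Illumina bead arrays of the study. The other 6 arrays were lungs of control mice of the same strain and sex, 3 at 6 months and 3 at 4 months, and are used below only to show what the same ages did without smoke. All mice were kept under specific pathogen-free conditions, the labels name no altered allele, and the samples are called biological replicates. The sources used here do not state the dose of smoke, the length of exposure or the hour of collection, so age and length of exposure cannot be told apart within the smoke arrays. The series is about inducible bronchus-associated lymphoid tissue, B cells and macrophages in smoke-induced lung disease, and the question here is whether the smoke-exposed lung differed between the ages.

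Cigarette smoke draws neutrophils and macrophages into the lung, and macrophages that have taken up smoke particles and lipid express lysosomal proteases and matrix-degrading enzymes. With longer exposure, B and T lymphocytes gather into follicles beside the airways, held there by homeostatic chemokines such as CXCL13 and CCL19, and plasma cells that arise from B cells secrete antibody. The wall of the alveolus is held by elastic fibres and collagens, which are made chiefly while the lung grows and whose loss is the hallmark of emphysema.

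The levels below are normalized log2 intensities, so a difference of 1 is a 2-fold difference in brightness, and every difference is 6 months minus 4 months unless stated otherwise. Median raw intensity was 18 to 20 on the smoke arrays at 6 months and 25 to 28 on those at 4 months, without overlap, while the control arrays had 18 to 25 at 6 months and 21 to 26 at 4 months. The part of this gap in raw brightness in the results was not tested. Between 55.4 and 56.9% of probes were detected on the smoke arrays at 6 months, and between 56.2 and 57.6% on those at 4 months. Lung markers were detected on all 6 smoke arrays: Sftpc and Sftpb of alveolar type 2 cells, Ager of type 1 cells, Scgb1a1 of club cells, Pecam1 and Cdh5 of endothelium, and Marco, Itgax and Adgre1 of macrophages. In a principal component analysis of the 6 smoke arrays the first component held 35.4% of the variance and separated the ages. The second held 26.7% and set the first smoke array at 6 months (21.2) apart from the rest (-10.3 to -0.31), so some values are also given without it. Others moved too when it was left out, such as the smoke differences of Mzb1 (1.57 to 2.00), Slc4a1 (1.90 to 1.52) and Mmp9 (-0.25 to 0.10). Mean correlation of a smoke array with its own age was 0.989 to 0.9945 and with the other age 0.9884 to 0.9906. The first smoke array at 6 months was no closer to its own age (0.989) than to the other (0.9893).

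Smoke-exposed lungs at 6 months differed from those at 4 months past the test in 2 of 10541 genes (0.019%), both lower at 6 months: Eln, which encodes elastin, and Xist, the RNA that silences one X chromosome in female cells. No gene passed in the higher direction by limma with Benjamini-Hochberg adjustment, while 545 genes were higher (5.17%) and 596 lower (5.65%) at an unadjusted p below 0.05. By overlap of arrays alone, 1209 genes (11.5%) had all 3 arrays at 6 months above all 3 at 4 months and 1135 (10.8%) had them all below. The median difference over all genes was 0.0069, 97.1% of genes differed by less than 0.5 in either direction, and for 10243 genes (97.2%) the 95% interval lay within 1 log2 unit of 0. Only 28 genes differed by more than 1. Between control lungs of the same ages 6 genes (0.0569%) passed, 1 higher and 5 lower, a count that ran from 0 to 577 on leaving out single arrays, 577 without control array 3 at 4 months. There, 8.06% of genes lay higher and 8.65% lower without overlap. The difference between the age changes of smoke and control lungs passed in 0 of 10541 genes, with 875 (8.3%) at an unadjusted p below 0.05. The number called in smoke lungs depended on the fit: with arrays weighted by their quality 372 genes passed (148 higher and 224 lower), and in a fit of the 6 smoke arrays alone 25 did (13 higher and 12 lower), Eln and Xist among them both times.

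Eln was the gene with the smallest p. Its levels were 8.15, 8.04 and 8.08 in smoke lungs at 6 months, against 9.58, 9.10 and 9.26 in smoke lungs at 4 months. The groups did not overlap, and the 3 arrays at 6 months lay close together. Eln fell by 1.23 (95% interval -1.5 to -0.95, limma adjusted p = 0.0058). In control lungs it had 9.26, 9.14 and 9.03 at 6 months and 9.90, 9.78 and 9.99 at 4 months, a difference of -0.75 (adjusted p = 0.058). The change in smoke lungs minus that in control lungs was -0.48 (95% interval -0.87 to -0.09, adjusted p = 0.534 over all probes), so a larger change under smoke was not shown. Averaged over the ages, Eln was also lower in smoke than in control lungs by 0.82 (adjusted p = 0.00012). The call was lost without the smoke array 2 or 3 at 6 months (adjusted p between 0.0625 and 0.0627). In whole lung, fewer cells of a type and less RNA per cell cannot be told apart.

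Xist had 5.80, 5.84 and 5.86 in smoke lungs at 6 months, against 7.16, 7.71 and 7.15 in those at 4 months. It fell by 1.51 (95% interval -1.93 to -1.08, limma adjusted p = 0.031), and both of its 2 probes moved the same way. The call was lost in 10 of 24 alternatives (adjusted p between 0.057 and 0.145), among them leaving out any one of the 6 smoke arrays. Control lungs gave nearly the same picture, with 5.65, 5.03 and 5.73 at 6 months and 7.04, 7.09 and 7.42 at 4 months, a difference of -1.71 (adjusted p = 0.016). The smoke change minus the control change was 0.21 (95% interval -0.39 to 0.80). Hsd3b2, a steroid dehydrogenase of the 3-beta type, also stood lower at the later age with and without smoke. It had 8.79, 8.49 and 8.82 in smoke lungs at 6 months and 9.95, 10.36 and 10.22 in those at 4 months, a difference of -1.48 (95% interval -2.04 to -0.92, limma adjusted p = 0.131), beside -1.79 in control lungs.

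Elastic fibre, cross-linking and collagen genes stood lower in smoke lungs at 6 months than at 4 months. Of 23 tested genes of that list, 21 had a difference below 0 and 16 (69.6%) had no overlap and lay lower, against 10.8% of all genes, and 0 lay higher without overlap. The list median was -0.31 (0.0069 over all genes), 1 gene passed (Eln), and 12 were lower at an unadjusted p below 0.05. The mean level of the list was 9.24, 9.06 and 9.13 on the smoke arrays at 6 months and 9.50, 9.43 and 9.51 on those at 4 months. In control lungs the median was -0.21, with 7 of the 23 lower and 1 higher without overlap. The exceptions in smoke lungs were Loxl2, a lysyl oxidase paralogue, at 0.06 and Lum, a small proteoglycan of collagen fibrils, at 0.10.

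Lox, the lysyl oxidase that cross-links elastin and collagen, had 8.58, 8.75 and 8.72 in smoke lungs at 6 months, against 9.43, 9.30 and 9.35 in those at 4 months. The groups did not overlap, and the difference was -0.68 (95% interval -0.93 to -0.42, limma adjusted p = 0.131). Control lungs went the other way, with 9.25, 9.42 and 9.46 at 6 months and 8.73, 8.81 and 9.10 at 4 months (0.50). The smoke change minus the control change, -1.17, had an adjusted p of 0.142. Col4a1 and Col4a2 encode the alpha chains of basement membrane collagen IV. Col4a2 had 11.54, 11.10 and 11.20 at 6 months and 11.92, 11.93 and 11.96 at 4 months under smoke, a difference of -0.65 (95% interval -0.95 to -0.36, limma adjusted p = 0.166). Col4a1 had 11.80, 11.47 and 11.75 at 6 months and 12.40, 12.18 and 12.17 at 4 months, a difference of -0.58 (95% interval -0.85 to -0.30, limma adjusted p = 0.184). Both collagen IV genes thus lay lower on every smoke array at 6 months. Among members named after their values were seen, Mfap4 differed by -0.45, Col1a1 by -0.40, Sparc by -0.40 and Col3a1 by -0.38, each without overlap.

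The collagen IV genes lie head to head on chromosome 8 and share a promoter, which is shown because both lay lower on the same arrays. In RefSeq's GRCm38.p6, the window from 250 bases before to 50 after the start of Col4a2 is chr8:11312555-11312854 on the plus strand. Its last 78 bases, in capitals, also lie in the corresponding window of Col4a1, chr8:11312777-11313076 on the minus strand.
Col4a2: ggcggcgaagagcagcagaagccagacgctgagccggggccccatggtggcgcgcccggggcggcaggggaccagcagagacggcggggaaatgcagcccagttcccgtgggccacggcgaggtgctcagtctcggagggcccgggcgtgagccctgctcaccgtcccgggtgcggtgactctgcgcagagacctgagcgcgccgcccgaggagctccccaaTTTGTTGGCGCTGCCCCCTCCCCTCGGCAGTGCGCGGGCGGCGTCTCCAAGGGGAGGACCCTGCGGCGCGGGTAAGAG

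Other matrix and vessel genes were among the 12 largest negative differences without overlap, of which Eln and Xist passed. Spon2, which encodes the matrix protein spondin 2, had 10.27, 9.73 and 9.89 in smoke lungs at 6 months, against 10.83, 10.96 and 10.96 in those at 4 months (-0.96, 95% interval -1.31 to -0.61, limma adjusted p = 0.131). It differed by -0.95 in control lungs too. Tnxb, encoding tenascin X, had 8.01, 7.76 and 8.17 at 6 months and 8.67, 9.05 and 9.01 at 4 months under smoke, a difference of -0.93, and its 3 probes moved together. Npr3, the clearance receptor for natriuretic peptides, had 7.67, 8.18 and 8.31 at 6 months and 9.07, 9.40 and 9.33 at 4 months under smoke. Its difference of -1.22 (95% interval -1.80 to -0.63) stood beside -0.12 in control lungs. Adm, which encodes the vasodilator adrenomedullin, was tightly grouped, with 5.03, 5.04 and 5.13 at 6 months and 5.99, 6.31 and 6.11 at 4 months. That difference of -1.07 (95% interval -1.41 to -0.73, limma adjusted p = 0.074) stood beside -0.08 in control lungs, and the test of the difference between the changes gave -0.99 (adjusted p = 0.304). Angptl4, an inhibitor of lipoprotein lipase, had 8.39, 9.40 and 8.79 at 6 months and 10.22, 9.60 and 10.28 at 4 months, a difference of -1.18 beside 0.03 in control lungs.

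**Figure D1:**
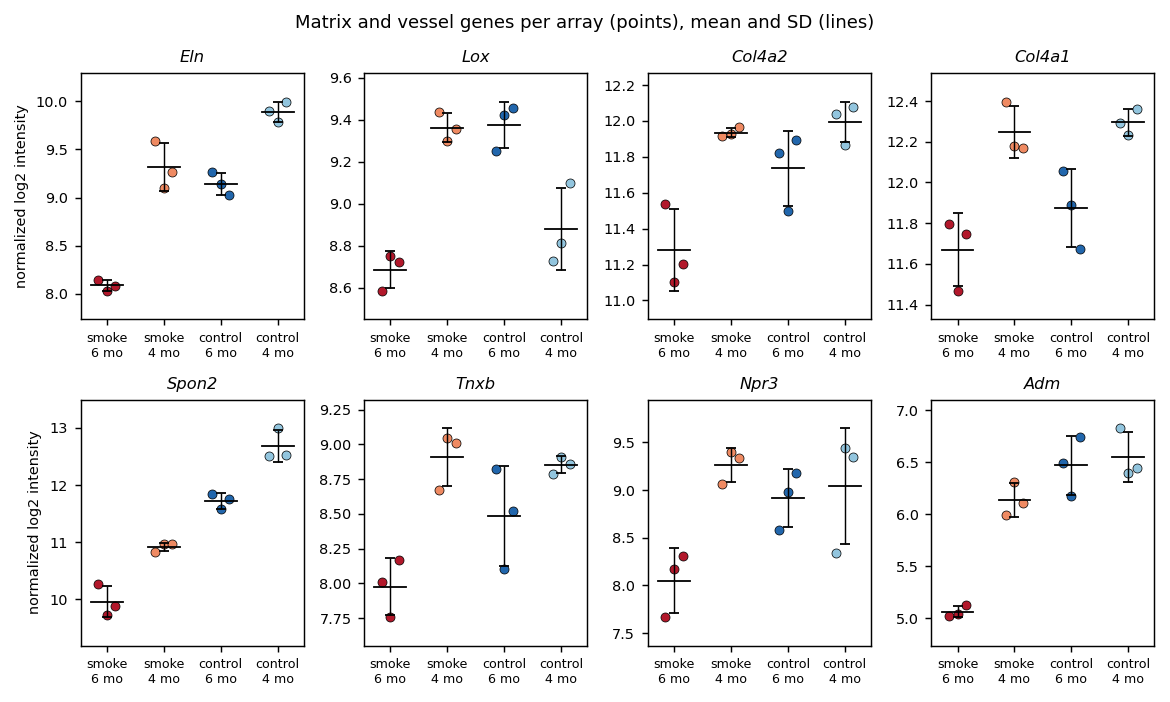
Normalized log2 intensity (y axis) of 8 matrix and vessel genes in the 4 groups of 3 arrays (x axis), where points are arrays and bars the mean and SD. For each gene the 3 smoke arrays at 6 months lie below the 3 smoke arrays at 4 months, and for Lox the control arrays lie the other way round.

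Endothelial and smooth muscle genes lay on the lower side by smaller amounts. Of 20 endothelial genes, 17 were below 0, and the median was -0.14, beside -0.08 in control lungs. Without overlap 7 (35%) lay lower and 1 higher, against 10.8% and 11.5% of all genes. Without the second smoke array at 6 months the endothelial median was -0.077 and the smooth muscle median -0.135, against -0.23 with it. Tek, the angiopoietin receptor TIE2, lay between 10.96 and 11 in smoke lungs at 6 months and between 11.44 and 11.54 in those at 4 months (-0.50, 95% interval -0.80 to -0.20, limma adjusted p = 0.245). Pecam1, the junction protein CD31, differed by -0.38 and Lyve1, a hyaluronan receptor of lymphatic vessels, by -0.48, both without overlap. Of 12 smooth muscle genes, 11 were below 0 and 3 (25%) lay lower without overlap, against 10.8% of all genes. The 3 were Mylk, the kinase of myosin light chain (-0.43), Actg2, an enteric and vascular actin (-0.39), and Hhip, a hedgehog-binding protein (-0.33). No gene of either list passed the test. The mean level of the smooth muscle list was 8.37, 7.96 and 8.14 at 6 months and 8.42, 8.39 and 8.38 at 4 months, so the first array at 6 months lay close to the earlier age.

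Several plasma cell genes stood higher in smoke lungs at 6 months. B cell genes leaned the same way in sign, with a median above 0 in control lungs too. Of 7 tested genes of plasma cells and IgA transport, 5 (71.4%) had all 3 arrays at 6 months above those at 4 months, against 11.5% of all genes. One of the 5, Derl3, was mostly not above background, and no gene passed. The median was 0.72, beside -0.09 in control lungs, and it was 0.18 over the 5 genes whose probes were detected on all 12 arrays. Mzb1, an endoplasmic reticulum protein of antibody-secreting cells, had 9.81, 11.02 and 11.17 in smoke lungs at 6 months, against 8.89, 9.07 and 9.31 in those at 4 months. The first array at 6 months lay between the others and the earlier age, and the difference was 1.57 (95% interval 0.57 to 2.58, limma adjusted p = 0.274). Tnfrsf17, the survival receptor BCMA of plasma cells, had 5.70, 6.29 and 6.47 at 6 months and 4.97, 4.72 and 5.09 at 4 months, a difference of 1.23 (95% interval 0.57 to 1.88). Its levels at 4 months lay near the dimmest detected probes of those arrays (4.85 to 4.87). The difference of Tnfrsf17 was 0.71 with the offset of 50 and 1.72 without further background correction. Fkbp11, a prolyl isomerase of the secretory pathway, had 9.06, 9.27 and 9.41 at 6 months and 8.27, 8.59 and 8.67 at 4 months, a difference of 0.74 (95% interval 0.44 to 1.04, limma adjusted p = 0.136). Derl3, a part of the machinery that removes misfolded proteins, was detected on 2 arrays at 6 months and, at 4 months, was not well above background on any array, so that it was at least 1.34-fold higher at 6 months (bright group over the detection bound, limma adjusted p = 0.298).

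The remaining plasma cell members differed less. Xbp1, the transcription factor of the secretory programme, lay higher without overlap at 0.18, and Sdc1 differed by 0.15. Pigr, the epithelial receptor that carries IgA into the airway lumen, overlapped, with 9.36, 9.14 and 9.34 in smoke lungs at 6 months and 9.18, 9.51 and 9.86 in those at 4 months. All 11 tested B cell genes had a difference above 0, with a median of 0.35 beside 0.25 in control lungs. Without overlap 2 (18.2%) lay higher, Vpreb3 (0.37) and Blk (0.30), against 11.5% of all genes. The difference was 0.67 for Pou2af1, a B cell coactivator, and 0.36 for the transcription factor gene Spib, both with overlap. Ms4a1, the B cell surface protein CD20, had 5.44, 5.56 and 5.73 at 6 months and 5.58, 5.48 and 5.53 at 4 months, which overlap (0.05, 95% interval -0.21 to 0.30). Cd79a, a chain of the B cell receptor, had 8.72, 8.76 and 8.97 at 6 months and 8.46, 8.31 and 8.85 at 4 months, which also overlap (0.28, 95% interval -0.26 to 0.82).

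Of the chemokines that organise lymphoid follicles, Cxcl13, which attracts B cells, stood higher without overlap. It had 9.36, 9.69 and 10.02 in smoke lungs at 6 months, against 8.76, 8.69 and 8.99 in those at 4 months (0.88, 95% interval 0.19 to 1.57, limma adjusted p = 0.357). Control lungs overlapped, with 7.06, 8.51 and 7.50 at 6 months and 8.49, 7.72 and 8.53 at 4 months (-0.56). Ccl19, a ligand of CCR7, had 8.08, 8.68 and 8.90 at 6 months and 7.89, 7.77 and 8.38 at 4 months under smoke, which overlap (0.54, 95% interval -0.06 to 1.14). Tnfsf13b, the B cell survival factor BAFF, differed by -0.02 (95% interval -0.28 to 0.24). Over the 16 tested follicle genes the median was 0.07. Without overlap 1 (6.25%) lay higher and 2 (12.5%) lower, against 11.5% and 10.8% of all genes.

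Members of the T cell, NK and chemokine lists differed in both directions. Gzmk, the protease granzyme K of memory T cells and NK cells, had 5.83, 6.37 and 6.19 in smoke lungs at 6 months, against 5.0, 5.03 and 4.87 in those at 4 months (1.16, 95% interval 0.67 to 1.66, limma adjusted p = 0.136). Its levels at 4 months lay near the dimmest detected probes of those arrays (4.85 to 4.87). The difference of Gzmk was 0.68 with the offset of 50 and 1.74 without further background correction. Nkg7, a granule membrane protein, differed by 0.42 and Ccl5, a chemokine of activated T cells, by 0.58, both without overlap. These 3 made 33.3% of the 9 tested NK and cytotoxic genes, against 11.5% of all genes. Klrb1c (-0.36) alone of the 9 lay lower, and the list median was 0.05. Of 10 CC chemokine genes 2 (20%) lay higher and 0 lower without overlap, against 11.5% and 10.8% of all genes. Their median was 0.01. Of 14 T cell genes 1 lay higher and 1 lower without overlap, with a median of 0.21 beside -0.18 in control lungs. Cxcl9, an interferon-gamma-induced ligand of CXCR3, had 8.87, 8.86 and 9.29 at 6 months and 7.58, 7.66 and 8.28 at 4 months (1.17, 95% interval 0.15 to 2.18). Ccl8, a monocyte chemokine, had 9.03, 9.15 and 9.20 at 6 months and 8.23, 8.36 and 8.21 at 4 months under smoke (0.86, 95% interval -0.08 to 1.80). The smoke arrays of Ccl8 were tightly grouped, while the control arrays ran from 5.80 to 7.48 at 6 months and from 6.36 to 8.14 at 4 months.

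Cd177, a neutrophil surface protein, had 10.82, 10.82 and 10.77 in smoke lungs at 6 months, against 9.81, 9.62 and 9.75 in those at 4 months. The smoke groups were far apart relative to their own spread, and the difference of 1.08 missed the test (95% interval -0.01 to 2.17, limma adjusted p = 0.466) in a fit whose spread includes control arrays of 7.33 to 7.80 at 6 months and 7.30 to 10.22 at 4 months. In the fit of the 6 smoke arrays alone it passed (adjusted p = 0.024). Of 11 neutrophil genes 2 (18.2%) lay higher without overlap, Cd177 and the lactoferrin gene Ltf (0.49), against 11.5% of all genes. Mmp9 differed by -0.25 and Lcn2 by 0.14, both with overlap, and the median of the list was -0.14. That median was 0.28 without the first smoke array at 6 months and -0.52 without the second. Cxcl5, an epithelial chemokine for neutrophils, stood lower, with 5.95, 5.52 and 5.54 at 6 months and 6.79, 6.85 and 6.69 at 4 months (-1.11, 95% interval -1.87 to -0.35), beside -1.16 in control lungs.

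**Figure D2:**
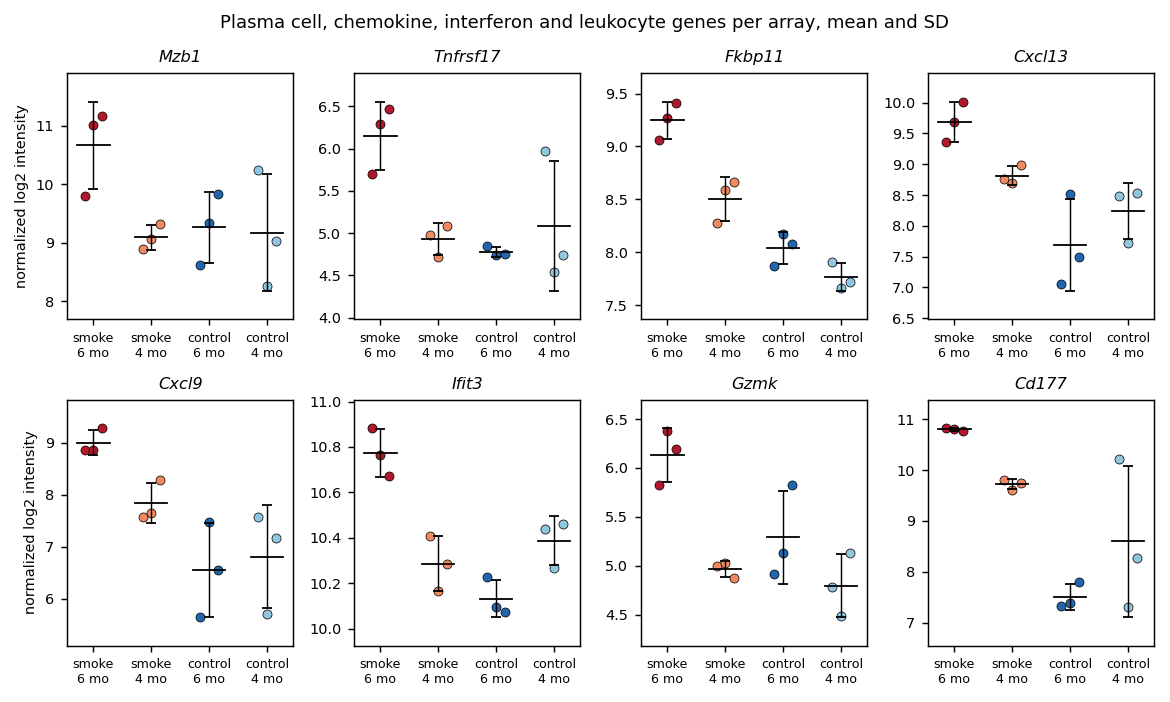
Normalized log2 intensity (y axis) of 8 plasma cell, chemokine, interferon and leukocyte genes in the 4 groups of 3 arrays (x axis), where points are arrays and bars the mean and SD. All 8 have the 3 smoke arrays at 6 months above the 3 smoke arrays at 4 months, and none passed the adjusted test.

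Interferon-induced genes leaned higher in smoke lungs at 6 months. All 18 tested members had a difference above 0 (0.04 to 1.17), with a median of 0.23. Without overlap 7 (38.9%) lay higher, against 11.5% of all genes. In control lungs the median was -0.17, with 0 higher and 4 lower without overlap, against 8.06% and 8.65% of all genes. No member passed in smoke lungs or in the test of the difference between the changes. Ifit3, an antiviral effector, had 10.88, 10.76 and 10.67 in smoke lungs at 6 months, against 10.41, 10.17 and 10.29 in those at 4 months (0.49, 95% interval 0.25 to 0.72, limma adjusted p = 0.184), and its 3 probes moved together. Cxcl10, another CXCR3 ligand, had 6.83, 6.75 and 6.80 at 6 months and 5.93, 5.75 and 6.36 at 4 months (0.78, 95% interval 0.31 to 1.25). Rsad2, the antiviral enzyme viperin, had 9.76, 9.48 and 8.68 at 6 months and 8.69, 7.85 and 8.51 at 4 months, which overlap (0.96, 95% interval 0.31 to 1.60). Isg15, a ubiquitin-like modifier named after its values were seen, had 8.02, 8.08 and 7.84 at 6 months and 7.58, 7.51 and 7.60 at 4 months (0.42).

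The promoters of Ifit3 and Isg15 are shown because these genes lay higher with the list and their windows carry the core of the interferon-stimulated response element, GAAA followed by any 2 bases and GAAA. Windows are RefSeq's for GRCm38.p6 and run from 250 bases before to 50 after the start, chr19:34583279-34583578 on the plus strand for Ifit3 and chr4:156200769-156201068 on the minus strand for Isg15. Capitals mark the matches, which were sought on both strands: 2 in Ifit3, read on its opposite strand, and 3 overlapping ones in Isg15.
Ifit3: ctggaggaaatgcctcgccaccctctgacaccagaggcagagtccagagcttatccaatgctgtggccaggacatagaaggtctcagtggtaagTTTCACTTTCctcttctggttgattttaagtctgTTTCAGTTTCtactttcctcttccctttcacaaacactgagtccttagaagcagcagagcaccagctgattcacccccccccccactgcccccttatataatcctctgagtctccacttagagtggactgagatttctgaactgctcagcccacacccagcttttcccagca
Isg15: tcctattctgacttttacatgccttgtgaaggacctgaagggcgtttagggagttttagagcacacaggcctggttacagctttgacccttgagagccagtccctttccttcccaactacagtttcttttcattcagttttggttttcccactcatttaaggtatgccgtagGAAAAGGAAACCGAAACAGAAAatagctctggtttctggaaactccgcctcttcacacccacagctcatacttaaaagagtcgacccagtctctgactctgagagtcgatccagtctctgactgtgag
Of the 18 tested interferon genes, 13 had a promoter in the RefSeq table, and 7 of these held the core in at least 1 promoter. Counted by promoter and not by gene, 3.44% of all 32851 held it. The list was chosen as interferon-induced, so its share does not bear on the change between the ages. A match describes these letters only.

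Genes of the cell cycle and DNA replication also leaned higher. Of 18 tested, 17 had a difference above 0, with a median of 0.27. Without overlap 10 (55.6%) lay higher, against 11.5% of all genes. In control lungs the median was -0.25, with 0 higher and 6 lower without overlap, against 8.06% and 8.65% of all genes. No member passed in smoke lungs. Uhrf1, which maintains DNA methylation through replication, had 8.11, 8.25 and 8.40 in smoke lungs at 6 months, against 7.65, 7.52 and 7.80 in those at 4 months (0.60, 95% interval 0.26 to 0.93, limma adjusted p = 0.238). Mcm5, a subunit of the replicative helicase, had 8.66, 9.0 and 9.03 at 6 months and 8.36, 8.41 and 8.62 at 4 months (0.43). Plk1, a mitotic kinase, had 6.65, 6.72 and 7.04 at 6 months and 6.18, 6.29 and 6.52 at 4 months (0.47). Tk1, a thymidine kinase, differed by 0.52 on its brighter probe, and its other probe moved the other way.

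Clock output genes leaned higher in smoke lungs at 6 months, and a list of clock activators that also holds the repressor Nfil3 leaned lower. Dbp, a transcription factor of clock output, had 12.25, 12.18 and 12.15 in smoke lungs at 6 months, against 11.35, 10.82 and 11.29 in those at 4 months (1.04, 95% interval 0.49 to 1.59, limma adjusted p = 0.209). It differed by 1.33 in control lungs, at lower levels of 8.77, 9.56 and 9.96 at 6 months and 7.76, 8.21 and 8.32 at 4 months. Ciart, a repressor of the CLOCK and BMAL1 pair, had 7.98, 7.63 and 7.79 at 6 months and 6.95, 7.03 and 6.98 at 4 months under smoke (0.82, 95% interval 0.40 to 1.24), beside -0.14 in control lungs. Of 10 tested genes of the output and repressor arm, 9 were above 0, and the median was 0.25 beside 0.29 in control lungs. Without overlap 5 (50%) lay higher, against 11.5% of all genes. Per1 (-0.08) and Nr1d1 (0.06), a period gene and the receptor REV-ERB alpha, overlapped.

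Of the list of clock activators with the repressor Nfil3, all 5 tested genes were below 0. The median was -0.28 beside -0.02 in control lungs. Arntl and Nfil3 were the 2 (40%) that lay lower without overlap, against 10.8% of all genes. The activators Clock (-0.28) and Npas2 (-0.19) overlapped. Arntl, which encodes the activator BMAL1, had 6.08, 6.25 and 6.30 in smoke lungs at 6 months, against 6.98, 7.31 and 7.11 in those at 4 months (-0.92, 95% interval -1.35 to -0.50, limma adjusted p = 0.170). Nfil3, the repressor E4BP4 of clock output genes, had 7.33, 8.0 and 7.70 at 6 months and 8.13, 8.43 and 8.31 at 4 months (-0.61, 95% interval -0.98 to -0.25). In control lungs Arntl differed by -0.20 and Nfil3 by 0.03, and the test of the difference between the changes passed for neither (adjusted p = 0.547 and 0.528).

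The promoter of Ciart is shown because it carries the E-box CACGTG, the site read by CLOCK and BMAL1, 3 times, marked in capitals. The window is RefSeq's for GRCm38.p6, chr3:95882179-95882478 on the minus strand, from 250 bases before to 50 after the start. The E-box reads the same on both strands and occurred in 7.15% of all 32851 promoters. Counting any promoter of a gene, it occurred in 3 of the 8 output and repressor genes with a promoter in the table. These were Ciart, Tef (0.44) and Per1 (-0.08). The window of Dbp, which differed by 1.04, held no E-box, and bases outside the windows were not searched. A link between the motif and the differences was not tested.
Ciart: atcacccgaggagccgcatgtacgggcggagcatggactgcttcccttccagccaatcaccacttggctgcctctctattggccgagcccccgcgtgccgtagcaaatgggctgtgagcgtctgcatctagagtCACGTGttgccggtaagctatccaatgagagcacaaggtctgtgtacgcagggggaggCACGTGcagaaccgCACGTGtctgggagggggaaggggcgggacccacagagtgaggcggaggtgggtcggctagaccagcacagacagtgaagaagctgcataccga

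Glucocorticoid targets stood lower in smoke lungs at 6 months than at 4 months and higher in control lungs. Of 11 tested, 10 were below 0 under smoke and 6 (54.5%) lay lower without overlap, against 10.8% of all genes. The median was -0.38 under smoke and 0.60 in control lungs, where 4 lay higher and 0 lower without overlap (8.06% and 8.65% of all genes). No member passed in smoke lungs, and none passed in the test of the difference between the changes. Ddit4, an inhibitor of mTOR signalling, had 8.38, 8.58 and 8.43 in smoke lungs at 6 months, against 9.17, 9.08 and 9.84 in those at 4 months (-0.90, 95% interval -1.43 to -0.37, limma adjusted p = 0.245). Tsc22d3, the leucine zipper protein GILZ, had 11.66, 11.30 and 11.43 at 6 months and 11.91, 11.89 and 11.88 at 4 months (-0.43, 95% interval -0.74 to -0.12). Errfi1, an inhibitor of the EGF receptor, had 11.88, 11.97 and 11.52 at 6 months and 12.13, 12.02 and 12.36 at 4 months (-0.38, 95% interval -0.82 to 0.06). Pdk4, a kinase that restrains pyruvate oxidation, differed by -0.51. The smoke arrays of all 4 genes lay lower at 6 months without overlap.

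Immediate early genes, which respond quickly to growth factors and stress, were mixed. Of 14 tested, 9 were below 0, with a median of -0.17. Without overlap 3 (21.4%) lay lower and 1 (7.14%) higher, against 10.8% and 11.5% of all genes. Dusp1, a phosphatase of stress kinases, had 12.15, 12.20 and 12.12 in smoke lungs at 6 months, against 12.99, 13.18 and 12.64 in those at 4 months (-0.78, 95% interval -1.21 to -0.35, limma adjusted p = 0.228). Zfp36, which destabilises cytokine mRNAs, had 10.72, 10.74 and 10.70 at 6 months and 11.20, 11.49 and 11.19 at 4 months (-0.57). Fosb, by contrast, lay higher at 6 months by 0.57 (95% interval -0.34 to 1.48).

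**Figure D3:**
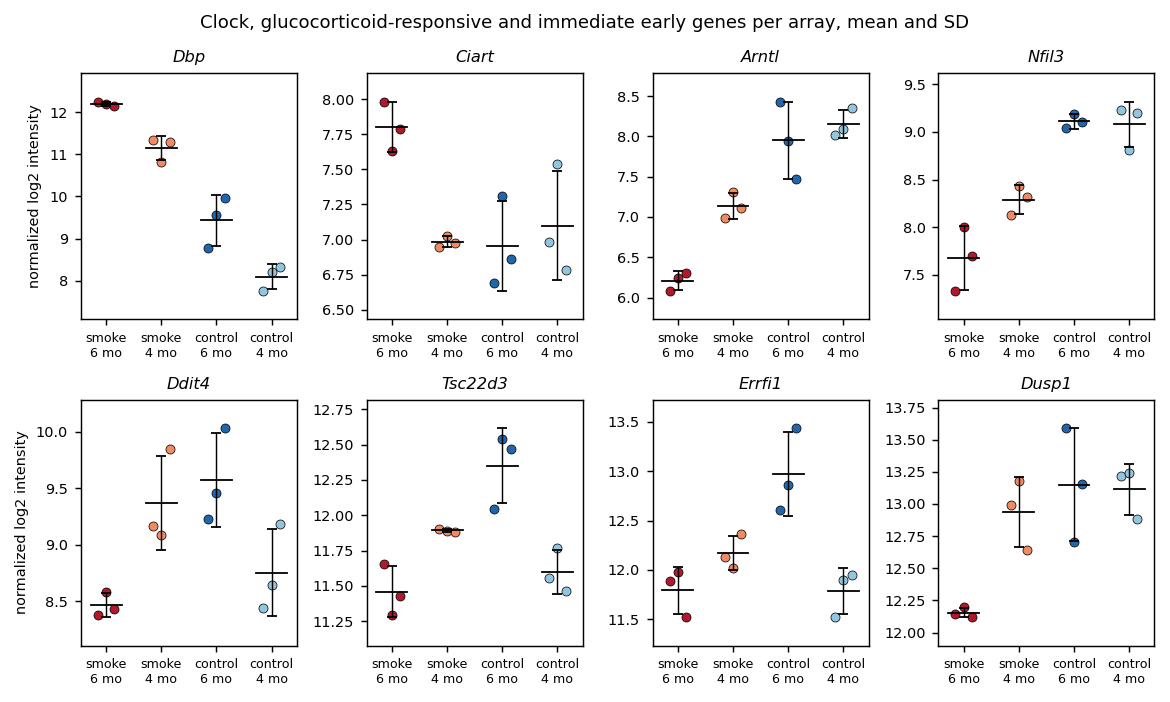
Normalized log2 intensity (y axis) of 8 clock, glucocorticoid-responsive and immediate early genes in the 4 groups of 3 arrays (x axis), where points are arrays and bars the mean and SD. Dbp and Ciart lie higher and the other 6 lower on the smoke arrays at 6 months than on those at 4 months, and Ddit4, Tsc22d3 and Errfi1 lie the other way round in control lungs.

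Most genes that marked smoke exposure most strongly overlapped between the ages, as did most genes on the array. Smoke genes were taken from the average of the smoke effects at both ages. By that contrast 453 genes (4.3%) were higher and 281 (2.67%) lower in smoke than in control lungs (limma, adjusted p below 0.05). Its estimate is independent of the one between ages in this balanced design, but both tests use the same spread. The choice can thus favour genes of low spread, so their shares without overlap are not strictly comparable with those of all genes. Of the 12 with the largest average rise, 11 overlapped between smoke lungs at 6 and 4 months, where 11.5% of all genes lay higher and 10.8% lower without overlap. Mmp12, the macrophage elastase, had 9.91, 10.09 and 10.12 at 6 months and 10.04, 9.87 and 10.53 at 4 months (-0.11, 95% interval -1.01 to 0.79). Gpnmb, a glycoprotein of lipid-laden macrophages, had 12.91, 13.04 and 12.84 at 6 months and 12.86, 12.86 and 13.14 at 4 months (-0.02, 95% interval -0.45 to 0.40), with 2 of its 4 probes moving each way. Ctsk, the collagen-degrading cathepsin K, differed by 0.07 (95% interval -0.32 to 0.46) and Trem2, a lipid receptor of macrophages, by 0.02 (95% interval -0.34 to 0.39).

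Saa3, an acute phase protein, had 10.54, 11.44 and 11.53 in smoke lungs at 6 months and 10.80, 10.55 and 11.20 in those at 4 months, which overlap (0.32, 95% interval -0.34 to 0.98, and 0.63 without the first array at 6 months). Its control levels were lower at 6 months (5.93, 6.60 and 6.68) than at 4 months (8.03, 8.92 and 8.13), and the smoke change minus the control change was 2.28 (adjusted p = 0.26). Npy, Ccl3, Ear6, Wfdc17, Cxcr1 and Orm1 differed by -0.13 to 0.52, all with overlap. Without the first array at 6 months the difference was 0.85 for Orm1, 0.39 for Ear6, 0.36 for Ccl3 and 0.14 for Wfdc17. Dbp, described above, was the exception among the 12. Over 20 macrophage lipid and lysosome genes the median was 0.03. Without overlap 1 (5%) lay higher and 0 lower, against 11.5% and 10.8% of all genes. Cxcl1 (0.22), Lcn2 (0.14), Ccl2 (-0.28), Cyp1b1 (0.17) and Timp1 (0.02) likewise overlapped, and Nqo1, an enzyme of the antioxidant response, lay higher at 0.23 (95% interval -0.07 to 0.53).

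As a whole, the smoke genes differed between the ages by small amounts, in the direction of the smoke effect under quantile normalization. Of the 453 genes higher with smoke, 326 (72%) had a difference above 0, the median was 0.10, and 102 (22.5%) lay higher against 19 (4.19%) lower without overlap. None of them passed, and their median in control lungs was -0.12. After scaling to equal medians, which moved the median of all genes to -0.095, the sign of this set turned, with a median of -0.027 and 197 genes above 0. Of the 281 genes lower with smoke, 205 had a difference below 0, the median was -0.13, and 78 (27.8%) lay lower against 14 (4.98%) higher without overlap. One of these, Eln, passed. The strongest rises leaned as much in sign and median but had a smaller share without overlap, and the strongest falls did not lean in sign. Of the 101 genes higher with smoke by over 1, 72 had a difference above 0 and the median was 0.10. Of these 101, 10.9% lay higher and 1.98% lower without overlap, against 11.5% and 10.8% of all genes. Of the 18 genes lower with smoke by over 1, 9 were above and 9 below 0, with a median of 0.02. Without overlap, 5 of the 18 lay lower and 2 higher. Of the 8 largest average falls, 3 lay lower without overlap at 6 months: Spon2, Arntl and Gdpd2 (-0.46). Avpr1a, Asgr1, Acaa1b and Gp5 overlapped, and Fosb lay higher.

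**Figure D4:**
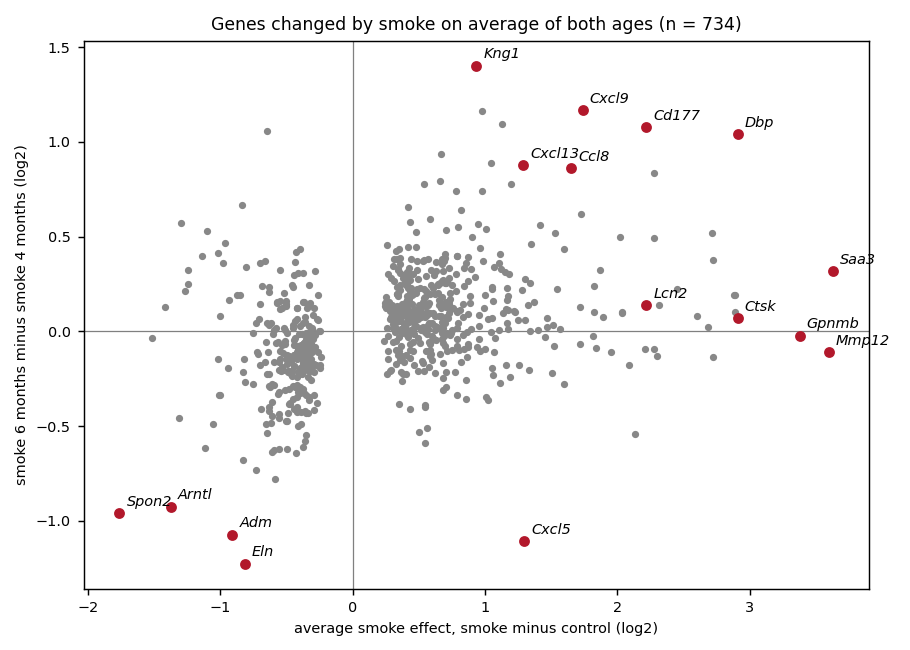
Difference between smoke lungs at 6 and 4 months (y axis, log2) against the smoke effect averaged over both ages (x axis, log2) for the 734 genes that passed the test of that average, 1 point a gene. Genes with an average effect above 3 (Saa3, Mmp12 and Gpnmb) lie within 0.4 of 0 on the y axis.

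Single genes of red cells and eosinophils were among the 12 largest positive differences without overlap, none of which passed. Slc4a1, the band 3 anion exchanger of red cells, had 9.86, 8.91 and 8.53 in smoke lungs at 6 months, against 7.55, 6.83 and 7.21 in those at 4 months (1.90, 95% interval 0.89 to 2.92, limma adjusted p = 0.213). Alas2, the first enzyme of haem synthesis in red cells, had 11.58, 11.10 and 10.70 at 6 months and 10.22, 9.76 and 10.23 at 4 months (1.06). Fech, the last enzyme of that pathway, differed by 0.55, without overlap. The haemoglobin genes Hba-a1 and Hbb-bt differed by -0.02 and 0.06, and the median of the 7 red cell genes was 0.06. Prg2, the major basic protein of eosinophils, had 7.32, 8.04 and 8.44 at 6 months and 6.22, 5.62 and 5.70 at 4 months under smoke (2.08, 95% interval 0.54 to 3.63), while control arrays ran from 5.39 to 7.42 at 6 months and from 5.13 to 8.54 at 4 months. Of 7 tested eosinophil and mast cell genes Prg2 alone lay higher and Gata2 (-0.42) alone lower without overlap, and the median was 0.18. Summed linear intensity of the 7 was 1980 to 2180 in smoke lungs at 6 months and 2260 to 2380 in those at 4 months.

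Kng1, which encodes kininogen, had 6.99, 7.24 and 7.61 in smoke lungs at 6 months, against 5.70, 6.06 and 5.87 in those at 4 months. Both of its 2 probes moved together, and the difference was 1.40 (95% interval 0.90 to 1.91, limma adjusted p = 0.131) beside -0.31 in control lungs. Oosp1 differed by 1.93, Trim10 by 1.21 and Csprs by 1.16, all without overlap. Hbb-b2, a beta globin, had 10.78, 6.29 and 6.46 at 6 months and 5.65, 5.62 and 5.95 at 4 months (2.10), and H2-Q5, a class I gene of the histocompatibility complex, had 9.73, 5.41 and 5.46 at 6 months and 5.31, 5.37 and 5.40 at 4 months (1.51). Without the first array at 6 months these differences were 0.63 and 0.075. What set that array apart in these 2 genes was not tested, and the strain of that mouse was not checked. Gm7609 differed by -0.98 under smoke and -1.60 in control lungs. Gsdmc2, a gasdermin, was not well above background on any smoke array at 6 months and was detected on all 3 at 4 months, where it was at least 1.5-fold higher (limma adjusted p = 0.136).

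Markers of fat and heart muscle were uneven over the smoke arrays at 6 months. Adipoq, the fat cell hormone adiponectin, had 7.26, 6.52 and 9.70 in smoke lungs at 6 months and 6.61, 6.31 and 7.04 in those at 4 months, and Lep had 5.09, 4.99 and 6.91 at 6 months and 4.52, 4.92 and 4.60 at 4 months. The median of 9 adipocyte genes was 0.53, and 0.11 without the third array at 6 months. Summed linear intensity of the 9 genes was 12500 to 16800 at 6 months and 15300 to 16300 at 4 months. Heart muscle genes summed to 3940 to 8520 at 6 months and 4930 to 5980 at 4 months, each of the 12 tested members was detected on at least 1 smoke array, and Myl3 was high on the first array at 6 months (8.47, against 6.39 and 6.30 on the other arrays of that age). The part of either tissue in other differences was not tested.

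Most lung epithelial genes overlapped between the ages in smoke lungs. The alveolar type 2 list had a median of -0.04 in smoke lungs, the same as in controls, with 15 of 18 genes below 0. Of this list 3 genes (16.7%) lay lower without overlap, against 10.8% of all genes. Its summed linear intensity was 194000 to 199000 at 6 months and 206000 to 208000 at 4 months under smoke, without overlap. Of 10 type 1 genes 2 (20%) lay lower without overlap, Emp2 (-0.14) and Clic5 (-0.13), against 10.8% of all genes. The type 1 median was -0.06. Sftpc, surfactant protein C, had 13.92, 14.13 and 14.07 at 6 months and 14.11, 14.43 and 14.43 at 4 months, which overlap (-0.28, 95% interval -0.52 to -0.05, limma adjusted p = 0.394). Scgb1a1, the club cell secretoglobin, differed by 0.03 (95% interval -0.16 to 0.21). Bpifb1, an airway secretory protein, differed most among 11 club and secretory genes, with 11.26, 10.28 and 10.77 at 6 months and 9.72, 9.59 and 10.16 at 4 months (0.95). Of 23 respiratory chain genes 8 (34.8%) lay higher without overlap, against 11.5% of all genes. Their median was 0.11 beside 0.18 in control lungs, and 0 in smoke lungs after scaling to equal medians. Of 25 proteasome genes 8 (32%) lay higher and 3 (12%) lower without overlap, against 11.5% and 10.8% of all genes. Their median was 0.08, and -0.025 after scaling to equal medians. Psmb8 (0.29) and Psmb10 (0.28), of the immunoproteasome, lay higher, and Psmb1 (-0.63) and Psmd11 (-0.53) lower.

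**Figure D5:**
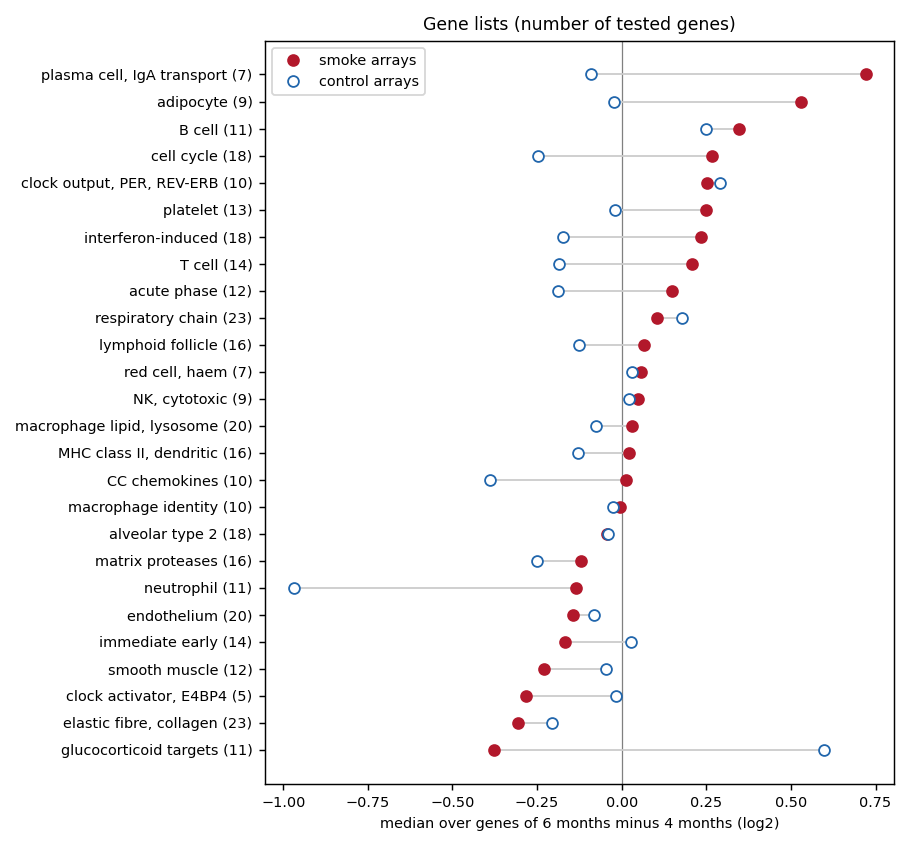
Median over the tested genes of each list (rows, with the number of genes) of the difference between 6 and 4 months on the log2 scale (x axis), filled for smoke lungs and open for control lungs. Under smoke the plasma cell list has the highest median (0.72) and the glucocorticoid list the lowest (-0.38), where the control median is 0.60.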

How the data were processed

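Lung RNA of 12 female C57BL/6N mice was labelled with biotin and measured on Illumina bead arrays, 3 for each of 4 groups, grouped by the titles of the samples. The authors deposited, per the file headers, a linear raw intensity and a detection p-value for each of 25697 probes. Between 18.3 and 21% of the intensities of an array were below 0, so a background had been subtracted. Neither the scanner software nor that method is given in the sources used here. A second deposited table of intensity served as an alternative. Total RNA was prepared on RNeasy columns with a DNase step, per the labels' protocols.

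The intensity was corrected with limma's normal-exponential model (nec, R 4.3.3, limma 3.58.1), with an offset of 16, then normalized by quantiles and turned into log2 values, which understates the differences of dim probes. The filter kept the 15490 probes (900 unnamed) whose detection p was below 0.05 on 3 or more of the 12 arrays, and the brightest probe stood for each of 10541 genes. Symbols came from the platform annotation, updated through gene identifiers.

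The 12 arrays entered 1 fit by lmFit and eBayes with a mean for each group (8 residual and 4.54 prior degrees of freedom). Contrasts were 6 minus 4 months in smoke and in control lungs, their difference, and the average smoke effect. P-values were two-sided and Benjamini-Hochberg adjusted over the 15490 probes, passing below 0.05. Intervals are 95% and unadjusted. The fit was tested on simulated data. The precision is limited by 3 arrays a group. A fold for a gene not detected in a group is a lower bound, set against the dimmest detected probe of each array.

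The 41 gene lists, and the comparison itself, were chosen with earlier results of these data known. They are described by counts, medians and non-overlap of 3 arrays against 3, with no set test. Named genes are those that passed, the 12 largest positive and 12 largest negative differences without overlap, the 12 largest rises and 8 largest falls of the average smoke effect, up to 4 members with the smallest p of each list described, and a fixed set of smoke, B cell, matrix, clock and epithelial genes. Others are said to be named after their values were seen, except for list members given by name with a median. Promoters and motifs came from a RefSeq table (GRCm38.p6). Alternatives changed the background correction, offset, normalization, filter, probe summary, weights, variance prior, replicate block, arrays in the fit and values, and left out each array in turn.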

Additional observations from a re-analysis of the deposited data

Results flagged for a closer look

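In 8 of the named genes, the 3 smoke arrays at 6 months all lay on one side of the 3 at 4 months. In control lungs the arrays at 6 months all lay on the other side. Of all genes, 11.5% lay higher and 10.8% lower without overlap in smoke lungs, and 8.06% and 8.65% in control lungs. Genes with opposite sides in smoke and control lungs were not counted over the whole array. Many of the 206 named genes were chosen by a small p or by non-overlap in smoke lungs, so separation there was partly built in. Whether these 8 genes exceed what such a choice would give was not tested. The value given for each is the smoke change minus the control change on the log2 scale. The test of that difference by limma passed in none after Benjamini-Hochberg adjustment over all probes.

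Lox, the cross-linking enzyme, had -1.17 (adjusted p = 0.142). Among glucocorticoid targets, Ddit4 had -1.72, Errfi1 had -1.56 and Tsc22d3 had -1.19, each with an adjusted p of 0.26. Tsc22d3 had 12.05, 12.54 and 12.47 in control lungs at 6 months and 11.56, 11.77 and 11.46 in control lungs at 4 months.

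Ifit3, an interferon-induced gene, had 0.74 (adjusted p = 0.26). The cell cycle genes Uhrf1 and Tk1 had 1.07 and 1.12 (adjusted p = 0.26 and 0.287), and the other probe of Tk1 moved the other way under smoke. Dnaic1, an outer dynein arm gene of motile cilia, had 0.44 (adjusted p = 0.511), and only 1 of its 2 probes showed its direction under smoke.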

How the results depend on the processing

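The 2 genes that passed between smoke lungs at 6 and 4 months became 1 without further background correction, 1 without the detection filter, 1 with the replicate block, 6 after scaling to equal medians, 25 in a fit of the 6 smoke arrays alone and 372 with array weights. Leaving out each array in turn gave 0 to 7: 0 without smoke array 2 or 3 at 6 months, 1 without any one of the smoke arrays at 4 months or control array 1 at 6 months, and 7 without control array 2 at 4 months. Eln was lost in 2 of 24 alternatives and Xist in 10 of 24 (adjusted p between 0.057 and 0.145), among them the replicate block, and neither changed sign. Deviations of same-numbered smoke arrays correlated at 0.0133, -0.0959 and 0.0383, so the numbers were not taken to pair mice. For control lungs the 6 genes became 10 without further background correction, 20 with the offset of 50, 12 in the authors' deposited second table, 2 without the filter, 3 with detection on all 12 arrays, 0 with the replicate block, 175 with array weights, 26 with an intensity trend and 0 in a fit of the 6 control arrays alone. Leaving out each array gave 0 to 577: 577, 30 and 0 without control arrays 3, 2 and 1 at 4 months, 55, 1 and 2 without control arrays 1, 2 and 3 at 6 months, 3 and 1 without smoke arrays 2 and 3 at 6 months, and 1 without smoke array 2 or 3 at 4 months. For the difference of the age changes, 0 genes became 1 with the offset of 50, with equal medians or with the intensity trend, 2 with the mean of a gene's probes and 13 with array weights, and leaving out each array gave 0 to 2. The 734 genes of the average smoke effect became 1252 with array weights, and 450 to 956 on leaving out each array, with 484 and 469 without smoke array 2 and 3 at 6 months and 450 without smoke array 3 at 4 months. Scaling to equal medians moved the median of all genes between the smoke ages to -0.095. The median of the 453 genes higher with smoke was -0.027 under that scaling and 0.07 to 0.15 under the other alternatives. Of 206 named genes 179 kept their sign in every alternative, as did 21 of 41 list medians. The medians of the elastic fibre, endothelial, smooth muscle, plasma cell, B cell, interferon, cell cycle, clock and glucocorticoid lists are among the 21. The cause of these shifts was not tested. With 3 arrays a group, the median half-width of the unadjusted 95% interval of a smoke difference was 0.30. The adjusted test asked for larger differences than that. Lox at -0.68 and Adm at -1.07 did not pass it in the main fit, so a gene that did not pass may still have differed.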
